A study of Arabidopsis thaliana with 40 samples.

Results

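A small set of shoot-apex transcripts fell during the first long days in both wild-type accessions of Arabidopsis thaliana. In mutants of the day-length regulator CONSTANS (CO) or the flowering signal FLOWERING LOCUS T (FT), any fall from day 0 to day 7 stayed under 0.4 log2 units. The set holds 38 of the 22746 probe sets measured besides controls. A probe set entered it when the mean at day 7 was at least 0.8 log2 units below the mean at day 0 in each of the 2 accessions, which are Columbia (Col) and Landsberg erecta (Ler in the labels), and lay above -0.4 in both mutants, co-2 and ft-2. Of 478 probe sets that fell that far in both accessions, 299 were at or below -0.4 in both mutants as well, 36 stayed above it in co-2 alone, 105 in ft-2 alone and 38 in both. Another 8 probe sets were left out by name, and none of those 8 met the 4 conditions. The members were chosen by their measured differences between days 0 and 7 in Col, Ler, co-2 and ft-2 (16 of the 40 arrays), so those values are given below as a description with no test.

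RNA from the shoot apex was read on 40 ATH1 arrays, 2 for each of 5 genotypes at each of 4 days. All plants, mutants included, spent 30 days at 21 °C under short days with 9 h of light and 15 h of darkness, and were then given long days with 16 h of light and 8 h of darkness; day 0 is the end of the short days, and days 3, 5 and 7 count from the move. The genotypes were wild-type Col and Ler and single mutants of LFY (lfy-12), CO (co-2) and FT (ft-2). The labels do not give the mutants' accession: from general knowledge, co-2 and ft-2 are in Landsberg erecta and lfy-12 is in Columbia. No short-day apices after day 0 were analysed here, so day length and age cannot be told apart, and the hour of sampling is not given in the sources used here. The labels do not say whether replicates came from separate plantings, so a p-value here reflects the spread between the arrays alone, which may be technical.

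CO is a transcriptional regulator that accumulates in leaves at the end of a long day and switches on FT there. The FT protein moves to the shoot apex, where with the bZIP protein FD it activates floral promoters, and LEAFY (LFY) then gives the new primordia a floral fate. During this change the apex turns from making leaf primordia to making flowers, so transcripts of its vegetative organs can decline together with those of the meristem itself. In whole apices, fewer cells of a type and less RNA per cell cannot be told apart.

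The median level of the members lay well inside the range of the arrays. At day 0 it was between 8.27 (ft-2) and 8.70 (lfy-12) on the log2 scale. The median of all probe sets ran from 6.91 to 7.07 on the single arrays. Over all arrays 262615_at and 264083_at averaged 4.78 and 4.88, near the lower quartiles of the single arrays (4.66 to 4.92). With a filter at a mean of at least 5, 36 members remained. The array lists 1 gene for 16 of the members, 2 genes for 1 member and none for 21. The latter are counted below, and probe sets without a gene are named only where a result turns on them.

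By construction all 38 members fell in both accessions, and the median difference from day 0 to day 7 was -1.01 log2 units in Col and -1.38 in Ler. It was -0.22 in co-2 and 0.04 in ft-2, where 6 and 20 members lay above 0. The members differed between the accessions in how far they fell: 29 of 38 fell more in Ler than in Col. In Col the median member had covered 53.3% of its fall by day 5, and in Ler 42.9%. The step from day 5 to day 7 was the largest of the 3 steps for 21 members in Col and for 24 in Ler. These day-by-day figures include arrays that chose the members.

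**Figure D1:**
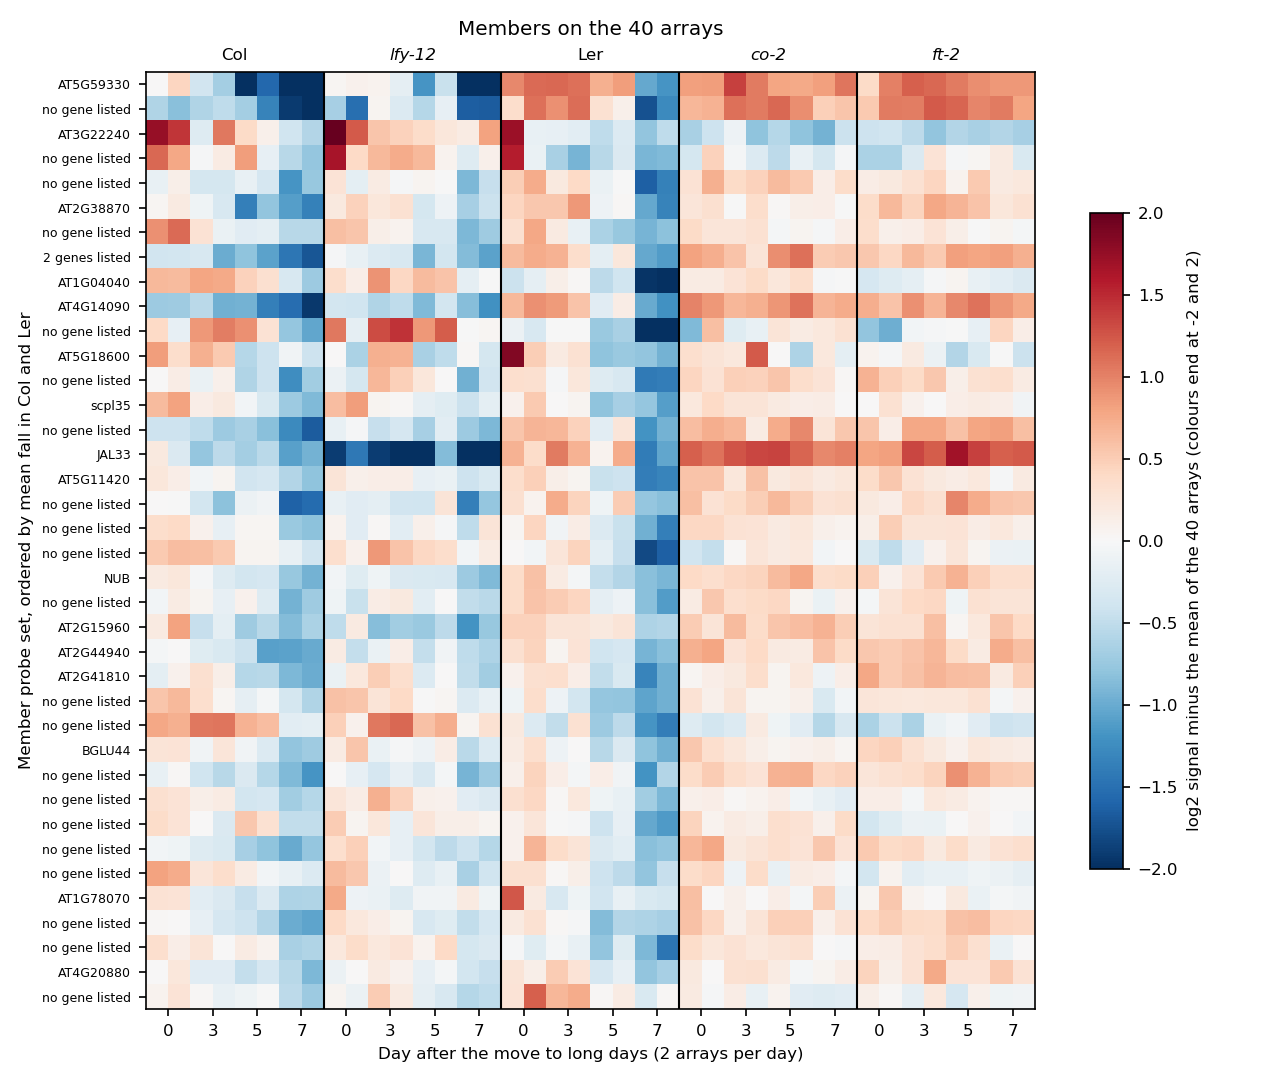
The log2 signal of each of the 38 members (rows, ordered by their mean fall in Col and Ler) on each of the 40 arrays (columns, by genotype and day), with the member's mean over all arrays taken away. Red is above and blue below that mean; the Col and Ler columns turn blue by day 7, as the choice of members requires, those of lfy-12 turn blue for most members, and those of co-2 and ft-2 do not.

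At the edge of the set, just inside lay 255461_at and 259681_at, at -0.81 each in Col, and, at the limit for the mutants, 256524_at (-0.38 in co-2) and AT5G11420 (-0.38 in ft-2). Just outside lay AT1G62480, at -0.7981 in Ler, and 249515_at, at -0.7978 in Col. When each of the 16 arrays was left out in turn, 17 of the 38 members, 8 of them with 1 gene, met the conditions every time.

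The first replicate of Ler at day 0 stood apart from the second in 4 members by more than 1 log2 unit. AT3G22240, for which no role is given here, read 8.85 and 6.99 there. AT5G18600, a glutaredoxin, a small enzyme of thiol redox control, read 8.53 and 7.17, and the WD40-repeat gene AT1G78070 read 6.65 and 5.60. The remaining one of the 4, 254975_at, read 6.95 and 5.25. Without that array the Ler difference from day 0 to day 7 became -0.50 for AT3G22240, -0.51 for AT1G78070, -0.77 for 254975_at and -1.35 for AT5G18600, so that 3 of the 4 no longer met the fall of 0.8. None of these 4 was called in either mutant against Ler at day 5. For AT3G22240 the mutants were already low at day 0, at 6.48 and 6.71 in co-2 and 6.72 and 6.74 in ft-2. Those values lie near the 6.35 and 6.63 of Ler at day 7.

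The arrays that played no part in the choice ask the same question anew: whether the members fell from day 3 to day 5, in which genotypes, and whether the mutants stood above Ler by day 5. Each test was limma's moderated test over all 22746 probe sets with Benjamini-Hochberg adjustment within the comparison, and a probe set was called at an adjusted p under 0.05. Errors beside differences are limma standard errors. Shares of all probe sets are given for adjusted calls only, so counts of members at an unadjusted p have no such share beside them. From day 3 to day 5 in Ler, 15 of 38 members fell (39.5%), against 2.24% of all probe sets called lower, and none rose in limma's test or at an unadjusted p under 0.05. The members' median was -0.54, against 0.01 over all probe sets. The 15 became 6 without the first Ler replicate of day 3, 6 without the first of day 5 and 10 without the second of day 3. In Col, 6 members fell, against 1.09% of all probe sets, and 1 rose, against 0.712%. The number that fell in Col was 1 to 3 when a replicate was left out.

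In co-2 and ft-2 no member was called in either direction from day 3 to day 5. At an unadjusted p under 0.05, 5 members were higher and 2 lower in co-2, and 3 were higher and 1 lower in ft-2. These comparisons called few probe sets at all: 0.347% higher and 0.136% lower in co-2, and 0.044% higher and 0.00879% lower in ft-2. The difference between genotypes in this step was tested directly. The change from day 3 to day 5 was more positive in co-2 than in Ler for 3 members, against 0.119% of all probe sets, and in ft-2 than in Ler for 4, against 0.123%. The medians of this difference over the members were 0.45 and 0.51, against 0.02 and 0.01 over all probe sets. No member differed the other way, also at an unadjusted p under 0.05. At that threshold 21 members in each mutant were more positive, and the share of all probe sets is not given here.

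At day 5 itself, 23 of 38 members (60.5%) were higher in co-2 than in Ler, against 6.83% of all probe sets, and 24 (63.2%) were higher in ft-2 than in Ler, against 7.87%. None was called lower, against 2.77% and 3.46% of all probe sets, and none was lower at an unadjusted p under 0.05 either. The median difference over the members was 0.56 in co-2 and 0.57 in ft-2, and over all probe sets 0.06 in both. The calls over all probe sets, 1553 higher and 630 lower in co-2, became 710 and 1101 when every array was centred on its median, and 1789 and 786 in ft-2 became 909 and 1402; under that scaling 17 and 18 members were higher and none lower. Both comparisons share the Ler arrays, so the 20 members called in both mutants are not 2 independent results. The share of all probe sets called in both is not given here. Without the first Ler replicate of day 5, co-2 had 13 members above Ler and ft-2 had 11. The count in co-2 was also 13 without its second replicate, and that in ft-2 was 13 without its first.

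At day 3 few members differed from Ler. AT5G11420 alone was higher in co-2 than in Ler, at 0.33 ± 0.09 (adjusted p = 0.0451), where 1.9% of all probe sets were called higher. It was not called without the second co-2 replicate of day 3, at 0.15, nor without either Ler replicate of that day, nor under 4 other settings given below. In ft-2, 2 members were higher and 2 lower than in Ler, against 3.07% and 1.63% of all probe sets.

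**Figure D2:**
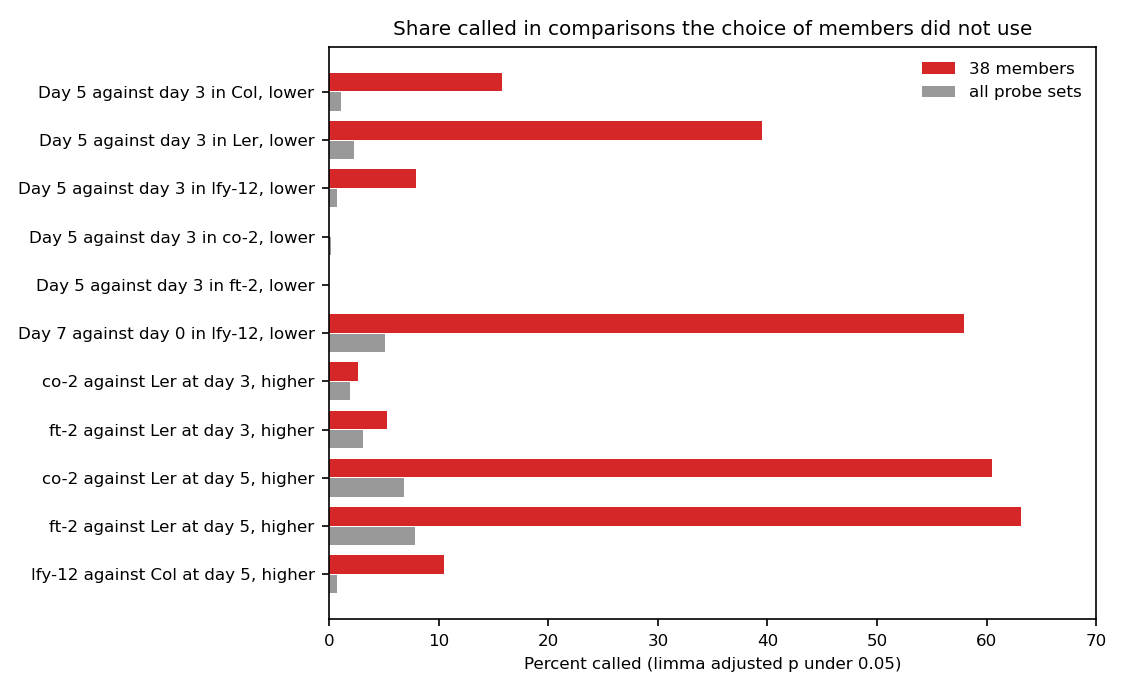
Percent called at a limma adjusted p under 0.05, in the direction named on each row, for the 38 members (red) and all 22746 probe sets (grey). The red bars are longest for co-2 and ft-2 against Ler at day 5 (60.5% and 63.2%), for lfy-12 from day 0 to day 7 (57.9%) and for Ler from day 3 to day 5 (39.5%), and none of the members is called lower from day 3 to day 5 in co-2 or ft-2.

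Among the regulators in the set, NUB showed the clearest separation of the named members. NUB (NUBBIN) encodes a zinc-finger protein related to JAGGED, and both promote growth of lateral organs. In Ler its replicates read 8.00 and 8.22 at day 0, 7.79 and 7.59 at day 3, 7.15 and 7.05 at day 5, and 6.79 and 6.71 at day 7. In co-2 they read 8.05 and 8.07 at day 3 and 8.26 and 8.40 at day 5. In ft-2 they read 7.91 and 8.16 at day 3 and 8.32 and 8.10 at day 5. At day 5 both arrays of each mutant thus lay above both Ler arrays, with a gap several times the spread within any of the 3 groups.

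NUB fell in Ler from day 3 to day 5 by 0.59 ± 0.12 log2 units, a 1.51-fold decrease (adjusted p = 0.00274). Without the first Ler replicate of day 3 the fall was 0.49 (adjusted p = 0.0750). At day 5 it was 2.35-fold higher in co-2 than in Ler (log2 difference 1.23 ± 0.12, adjusted p = 4.04e-08) and 2.16-fold higher in ft-2 (1.11 ± 0.12, adjusted p = 2.03e-07). These 2 calls were kept when any single replicate was left out. The step from day 3 to day 5 differed from that of Ler by 0.87 ± 0.17 in co-2 (adjusted p = 0.0155) and by 0.77 ± 0.17 in ft-2 (adjusted p = 0.0380). The call on the step was lost without any 1 of 4 arrays for co-2 (adjusted p up to 0.136) and of 7 for ft-2 (up to 0.279), and for ft-2 also with quantile normalization (0.71), median centring (0.70), only the genotypes compared or a replicate block (0.77 each).

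The other regulator with 1 gene listed, AT2G44940, belongs to the AP2/ERF family of transcription factors. At day 5 it read 7.26 and 7.32 in Ler, 7.85 and 7.82 in co-2 and 8.04 and 7.82 in ft-2. It was higher by 0.54 ± 0.17 in co-2 (adjusted p = 0.0355) and by 0.64 ± 0.17 in ft-2 (adjusted p = 0.0113). The co-2 call failed with any 1 of the 4 arrays left out, at 0.52 to 0.57, with quantile normalization (0.45) or median centring (0.44), with only the arrays unused in the choice and with a replicate block (0.54 each). That in ft-2 failed without either Ler replicate (0.61 and 0.67) or the first ft-2 replicate (0.53). AT4G20880, known as an ethylene-regulated nuclear protein, fell in Ler from day 3 to day 5 by 0.65 ± 0.14 (adjusted p = 0.00538). It was higher in ft-2 than in Ler at day 5 by 0.53 ± 0.14 (adjusted p = 0.0119), a call lost without the first Ler replicate (0.44) or either ft-2 replicate (0.53 each), and with quantile normalization (0.44) or median centring (0.43). Its fall in Ler was not called without the first Ler replicate of day 3 (a fall of 0.53) or of day 5 (a fall of 0.55).

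A pigment enzyme moved the same way. AT4G14090 encodes the glucosyltransferase that adds a sugar at the 5 position of anthocyanins, red and purple plant pigments. Its Ler replicates read 10.43 and 10.70 at day 0, 10.64 and 10.35 at day 3, 9.56 and 9.94 at day 5, and 8.78 and 8.58 at day 7. In co-2 the arrays of day 5 gave 10.67 and 10.87 and those of day 7 gave 10.46 and 10.52, and in ft-2 they gave 10.74 and 10.87 and then 10.66 and 10.55. The mutant arrays stayed near the Ler level of day 0 while Ler dropped below them. From day 3 to day 5 the transcript fell in Ler by 0.75 ± 0.17 (adjusted p = 0.00831). That call was lost without the first Ler replicate of day 3, at a fall of 0.60, or of day 5, at a fall of 0.56. At day 5 it was 2.03-fold higher in co-2 than in Ler (1.02 ± 0.17, adjusted p = 0.000181) and 2.08-fold higher in ft-2 (1.06 ± 0.17, adjusted p = 8.53e-05), with any single replicate left out as well.

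The member with 2 genes listed, 265091_s_at, gave a like picture and is named by its probe set alone. At day 5 it read 9.87 and 10.30 in Ler, 11.00 and 11.17 in co-2 and 10.88 and 10.85 in ft-2. The differences from Ler were 1.00 ± 0.17 in co-2 (adjusted p = 0.000231) and 0.78 ± 0.17 in ft-2 (adjusted p = 0.00252). Without the first Ler replicate the ft-2 difference was 0.57 and not called.

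A pair of further genes of anthocyanin synthesis are no members but were measured. DFR (dihydroflavonol reductase) commits flavonoids to anthocyanins, and UF3GT adds a sugar to a later intermediate. These and BAN, of the parallel proanthocyanidin branch, were the 3 genes matched by symbol from a list of 19. DFR was left out of the set by name, and its day 7 difference in co-2, -0.51, lies past the limit of -0.4. In Ler, DFR read 11.11 and 11.00 at day 3 and 10.17 and 10.42 at day 5, while at day 5 co-2 read 11.41 and 11.47 and ft-2 11.56 and 11.45. DFR was higher at day 5 by 1.14 ± 0.15 in co-2 (adjusted p = 8.40e-06) and by 1.21 ± 0.15 in ft-2 (adjusted p = 2.73e-06). UF3GT was higher by 0.89 ± 0.17 (adjusted p = 0.000994) and 0.84 ± 0.17 (adjusted p = 0.00141). BAN differed by -0.05 ± 0.17 and -0.21 ± 0.17, neither called.

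The member with the largest differences at day 5 in ft-2 has no gene listed, and was picked out after its values were seen. It is 258167_at, which read 8.43 and 8.38 in Ler at day 3 and 7.55 and 7.82 at day 5. In co-2 it read 8.51 and 8.66 and then 8.89 and 8.88, and in ft-2 it read 8.79 and 8.78 and then 8.99 and 9.02. At day 5 it lay 1.20 ± 0.09 above Ler in co-2 (adjusted p = 5.48e-10) and 1.32 ± 0.09 in ft-2 (adjusted p = 6.15e-11). Its change from day 3 to day 5 differed from that of Ler by 1.02 ± 0.13 in co-2 (adjusted p = 7.19e-05) and by 0.94 ± 0.13 in ft-2 (adjusted p = 0.000249), and these 4 calls were kept with any single replicate left out.

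Cell wall and protein-processing genes formed the next group. scpl35 encodes a serine carboxypeptidase-like protein, a family with proteases and acyltransferases. It read 9.67 and 9.71 in Ler at day 3 and 8.85 and 8.99 at day 5, against 9.84 and 9.80 in co-2 and 9.80 and 9.82 in ft-2 at day 5. The fall in Ler between these days was 0.77 ± 0.13 (adjusted p = 0.000316), and the mutants lay above Ler at day 5 by 0.90 ± 0.13 (co-2, adjusted p = 2.06e-05) and 0.89 ± 0.13 (ft-2, adjusted p = 1.45e-05). These 3 calls were kept with any single replicate left out. In Col its values went from 10.30 and 10.46 at day 0 to 9.79 and 9.86 at day 3.

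AT5G11420 and AT2G41810 both encode DUF642 proteins, a plant family of cell-wall proteins. They sit at different levels, which arrays do not allow to be compared between genes, but they fell in both accessions from day 3 to day 5. AT5G11420 fell by 0.51 ± 0.09 in Ler (adjusted p = 0.000801) and by 0.36 ± 0.09 in Col (adjusted p = 0.0346). The Col call failed with any 1 of its 4 arrays left out, at falls of 0.31 to 0.41, with median centring (0.29), and without the intensity trend or with only the genotypes compared (0.36 each). AT2G41810 fell by 0.64 ± 0.15 in Ler (adjusted p = 0.0127) and by 0.78 ± 0.15 in Col (adjusted p = 0.00561). The Ler call was lost without the first Ler replicate of day 3 (a fall of 0.53) or of day 5 (0.54) and with only the genotypes compared (0.64), and the Col call without the first Col replicate of day 3 (0.68) or either of day 5 (0.77 and 0.80).

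At day 5 AT5G11420 lay 0.65 ± 0.09 above Ler in co-2 (adjusted p = 2.02e-05) and 0.61 ± 0.09 in ft-2 (adjusted p = 3.46e-05). AT2G41810 lay 0.54 ± 0.15 above Ler in co-2 (adjusted p = 0.0213) and 1.02 ± 0.15 in ft-2 (adjusted p = 3.46e-05). Its co-2 call was lost without the first Ler replicate (0.45) or the second co-2 replicate (0.46), with quantile normalization (0.47) or median centring (0.44), and with only the genotypes compared (0.54). Its ft-2 arrays were the highest of the 5 genotypes on every day, including day 0, where they read 7.02 and 6.76 against 6.34 and 6.57 in Ler. The 2 mutants at day 5 differed by 0.48 for this gene, with a 95% interval of 0.17 to 0.79 (adjusted p = 0.470).

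Enzymes and inhibitors of other kinds made up most of the remaining named members. AT1G04040, a HAD-family acid phosphatase, read 9.35 and 9.25 in Ler at day 3, 8.71 and 8.83 at day 5 and 7.27 and 7.08 at day 7. It fell in Ler from day 3 to day 5 by 0.53 ± 0.12 (adjusted p = 0.0108), a call lost without either day 3 replicate (0.48 and 0.58) or the first of day 5 (0.47). At day 5 it read 9.46 and 9.59 in co-2 and 9.28 and 9.08 in ft-2. The difference from Ler was 0.76 ± 0.12 in co-2 (adjusted p = 0.000172) and 0.41 ± 0.12 in ft-2 (adjusted p = 0.0313). The ft-2 call failed with any 1 of the 4 arrays left out, at 0.31 to 0.51, and with quantile normalization (0.34) or median centring (0.31). Most of the fall of AT1G04040 in Ler came after day 5.

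AT2G38870 encodes a serine protease inhibitor of the potato inhibitor I type. It fell from day 3 to day 5 in Ler, from 10.62 and 10.94 to 9.98 and 10.10 (-0.74 ± 0.16, adjusted p = 0.00540), and in Col, from 9.99 and 9.75 to 8.71 and 9.29 (-0.87 ± 0.16, adjusted p = 0.00336). The Ler call was lost without the second replicate of day 3 (-0.58) or the first of day 5 (-0.68), and the Col call without the first replicate of day 3 (-0.75) or of day 5 (-0.58). At day 5 ft-2 stood above Ler by 0.66 ± 0.16 (adjusted p = 0.00639), while co-2 differed by 0.11 ± 0.16 (adjusted p = 0.723). The ft-2 call was lost without the first Ler replicate or the first ft-2 replicate, at 0.60 each. The difference between the mutants, 0.55 with a 95% interval of 0.22 to 0.88, did not pass the test (adjusted p = 0.346).

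BGLU44, of the beta-glucosidase family, was higher at day 5 by 0.49 ± 0.12 in co-2 (adjusted p = 0.00760) and by 0.58 ± 0.12 in ft-2 (adjusted p = 0.00144). Without the first Ler replicate the differences were 0.36 and 0.45 and neither was called, and the co-2 difference was not called without the second co-2 replicate (0.47) or with median centring (0.39). JAL33, a jacalin-related lectin, read 6.92 and 7.58 in Ler at day 5, 8.19 and 8.01 in co-2 and 8.52 and 8.21 in ft-2. It was higher in ft-2 by 1.11 ± 0.29 (adjusted p = 0.0122) and not called in co-2 (0.85 ± 0.29, adjusted p = 0.0637). The ft-2 call was lost without the first Ler replicate (0.78) or the first ft-2 replicate (0.96).

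**Figure D3:**
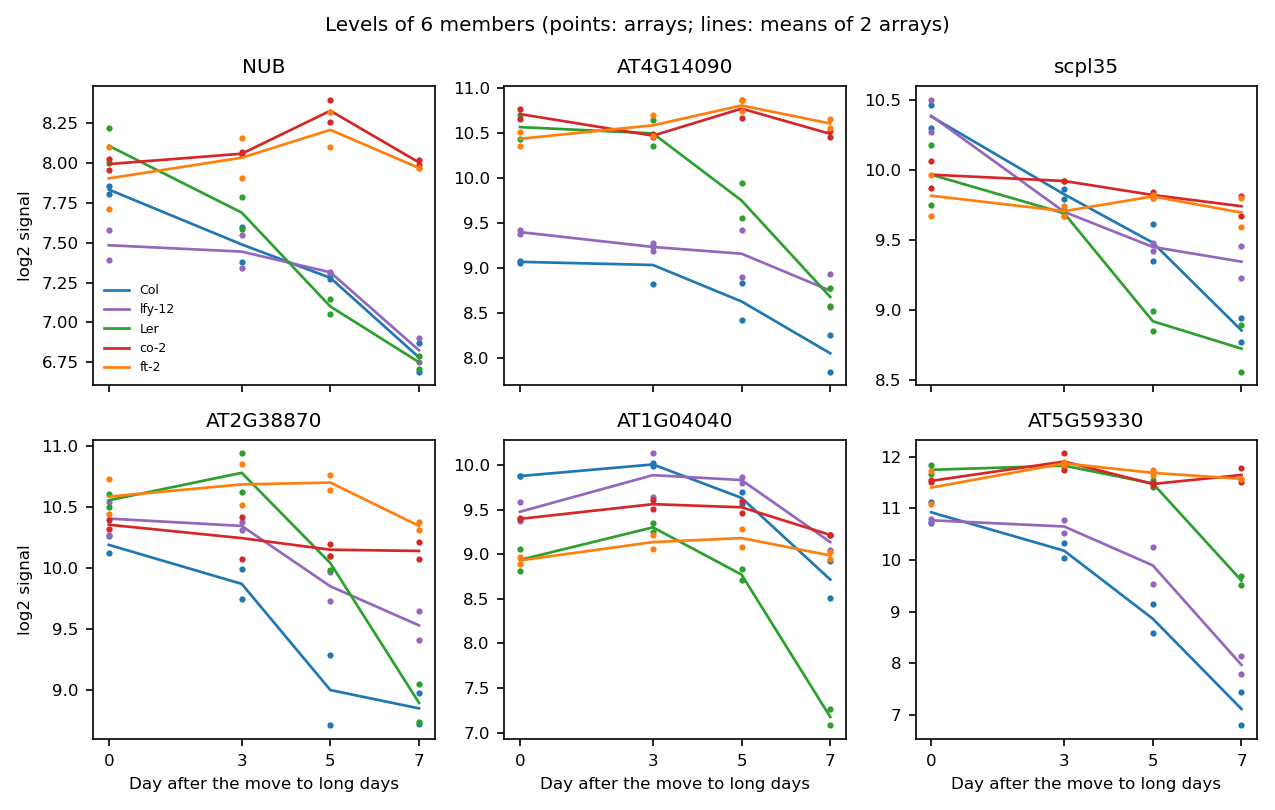
Log2 signal of 6 members by day after the move to long days, with 1 point for each array and a line through the mean of the 2 arrays. At day 5 both Ler arrays (green) lie below all those of co-2 (red) and ft-2 (orange) for NUB, AT4G14090 and scpl35, whereas for AT5G59330 they overlap those of co-2 at day 5 and lie below both mutants at day 7; Col (blue) and lfy-12 (purple) fall too.

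In neither mutant were the following 5 members with 1 gene called at day 5: AT5G59330, AT3G22240, AT5G18600, AT2G15960 and AT1G78070. AT5G59330, of the lipid-transfer protein family, had the largest fall of all members in Col by day 7 (-3.81). Its closely related neighbours may add to the probe set's signal, which was not tested. In Ler it still read 11.42 and 11.55 at day 5, against 11.49 and 11.46 in co-2 and 11.74 and 11.64 in ft-2, and then 9.68 and 9.52 at day 7. The differences from Ler at day 5 were -0.00 (95% interval -0.44 to 0.43) in co-2 and 0.21 (-0.23 to 0.65) in ft-2. In Col its fall was under way by day 5, from 10.33 and 10.03 at day 3 to 8.58 and 9.14, a 2.49-fold decrease (-1.32 ± 0.21, adjusted p = 0.000942).

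AT2G15960, for which no role is given here, read 7.33 and 7.38 in Ler at day 5 and 6.51 and 6.54 at day 7. For AT5G18600 the differences from day 3 to day 5 were -1.11 in Col, -1.02 in Ler, -1.27 in lfy-12 and -1.03 in co-2, each ± 0.31, and -0.48 in ft-2. Only that in lfy-12 was called (adjusted p = 0.0360), and it failed with any 1 of the 4 arrays left out, at -1.21 to -1.34, and with a replicate block (-1.27).

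**Figure D4:**
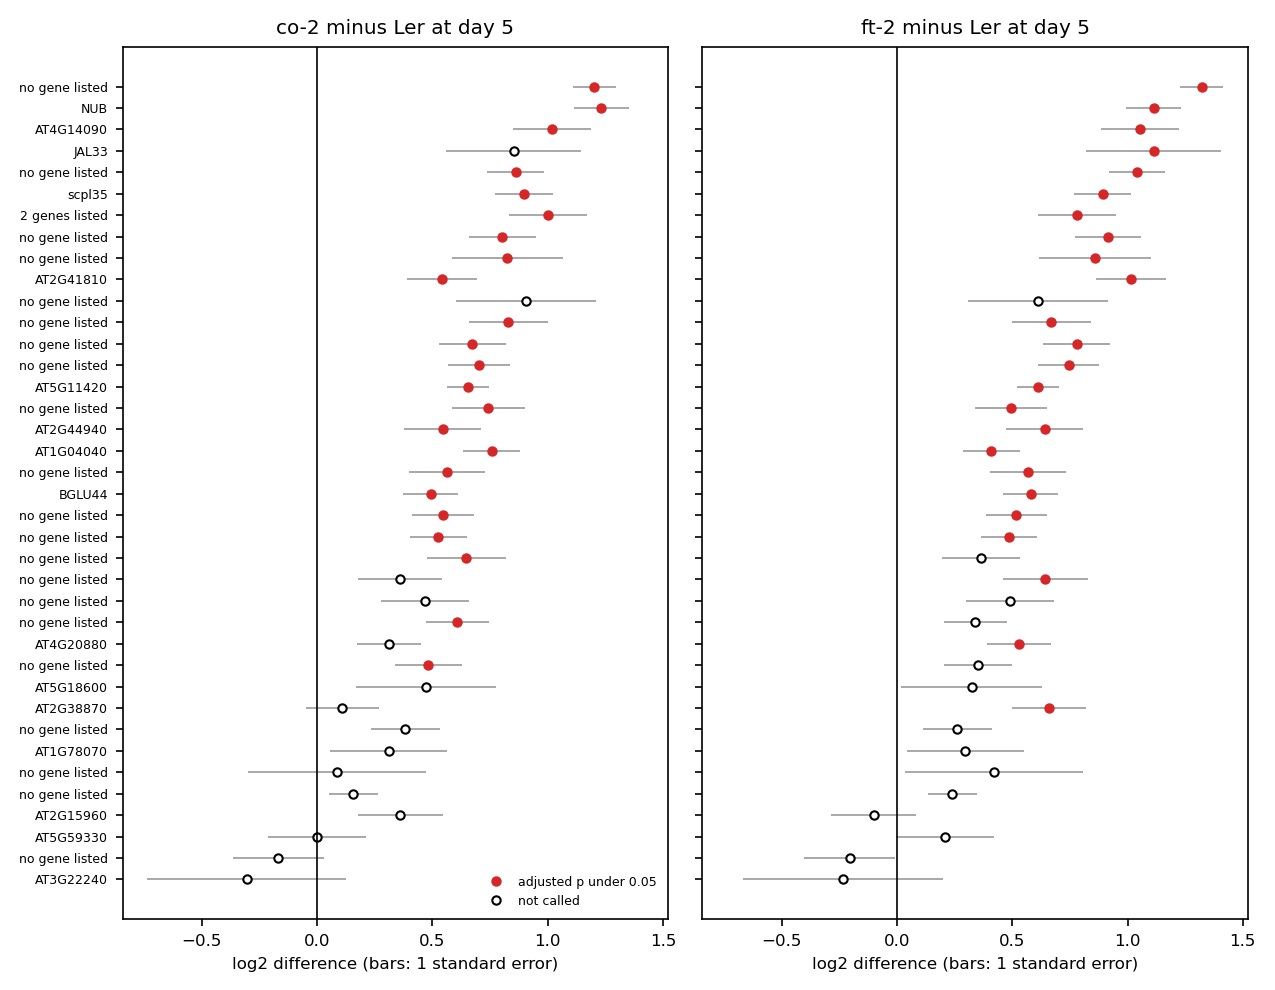
Difference from Ler at day 5 in co-2 (left) and ft-2 (right) for each of the 38 members on the log2 scale, with bars of 1 standard error. Filled red points are called at an adjusted p under 0.05 (23 in co-2 and 24 in ft-2); 35 members lie above 0 in each panel, and AT3G22240 lies lowest, at -0.30 and -0.23.

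The mutants were compared with each other at day 5, where the members could differ without affecting the choice. No member was called between ft-2 and co-2, against 0.119% of all probe sets higher in ft-2 and 0.0352% lower. At an unadjusted p under 0.05, 2 members were higher and 2 lower in ft-2, and the differences ran from -0.46 (AT2G15960) to 0.55 (AT2G38870). For NUB the difference was -0.12, with a 95% interval of -0.36 to 0.12, and for AT4G14090 it was 0.04, with an interval of -0.31 to 0.38. The intervals leave room for moderate differences between the mutants.

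Most members fell in the lfy-12 mutant as well. From day 3 to day 5, 3 members fell there, against 0.73% of all probe sets, and none rose, against 0.242%; at an unadjusted p under 0.05, 14 fell and none rose. The count of 3 was 0 to 1 with a replicate left out. From day 0 to day 7, 22 of 38 members fell there (57.9%), against 5.08% of all probe sets called lower, and none rose, against 7.74% of all probe sets called higher. No member was higher at an unadjusted p under 0.05 either. The median over the members was -0.65, beside the -1.01 in Col that chose them. Counted from day 3 to day 7 instead, 24 members fell, against 3.31% of all probe sets, but only 14 members fell by both counts: 8 fell from day 0 alone and 10 from day 3 alone. The largest fall was that of AT5G59330, which read 10.74 and 10.80 at day 0, 9.53 and 10.26 at day 5 and 7.79 and 8.14 at day 7. That is a 6.97-fold decrease over 7 days (-2.80 ± 0.21, adjusted p = 2.60e-10).

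scpl35 fell in lfy-12 by 1.04 ± 0.13 (adjusted p = 7.88e-07), 265091_s_at by 0.89 ± 0.17 (adjusted p = 0.000491), AT2G38870 by 0.88 ± 0.16 (adjusted p = 0.000260) and BGLU44 by 0.78 ± 0.12 (adjusted p = 2.95e-05). NUB fell by 0.66 ± 0.12 (adjusted p = 0.000259), from 7.58 and 7.39 to 6.90 and 6.75, and AT5G11420 by 0.54 ± 0.09 (adjusted p = 0.000119). AT4G14090 fell by 0.65 ± 0.17 (adjusted p = 0.00917), AT2G41810 by 0.64 ± 0.15 (adjusted p = 0.00445) and AT2G15960 by 0.81 ± 0.18 (adjusted p = 0.00321). Each of these 3 lost its call without 1 or more single arrays: AT4G14090 without the second replicate of day 7 (-0.47), AT2G41810 without the second of day 0 (-0.47) or day 7 (-0.54), and AT2G15960 without the second of day 0 (-0.46) or the first of day 7 (-0.59). AT3G22240 fell by 1.61 ± 0.43 (adjusted p = 0.0119), and this rests on the first replicate of day 0, which read 10.09 beside 8.36. Without it the difference was -0.75 and not called, and without the first replicate of day 7 it was -1.30 and not called. Counted from day 3, 5 of these genes lost their call: scpl35 (-0.36), BGLU44 (-0.33), AT4G14090 (-0.49), AT2G15960 (-0.20) and AT3G22240 (-0.03).

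The named members not called in lfy-12 were AT2G44940 (-0.41 ± 0.17), AT4G20880 (-0.36 ± 0.14), AT1G04040 (-0.34 ± 0.12), AT1G78070 (-0.29 ± 0.25), JAL33 (-0.72 ± 0.29) and AT5G18600 (0.15 ± 0.31). For AT1G04040, at -1.15 in Col and -1.76 in Ler, the lfy-12 arrays read 9.58 and 9.37 at day 0 and 9.05 and 9.22 at day 7, against 8.92 and 8.51 in Col at day 7. Whether the fall to day 7 differs between lfy-12 and Col was not tested, because the Col arrays of those days chose the members. In the step from day 3 to day 5, no member was called as different between lfy-12 and Col, against 0% of all probe sets higher and 0.0044% lower. At an unadjusted p under 0.05, 1 was higher and 2 were lower.

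**Figure D5:**
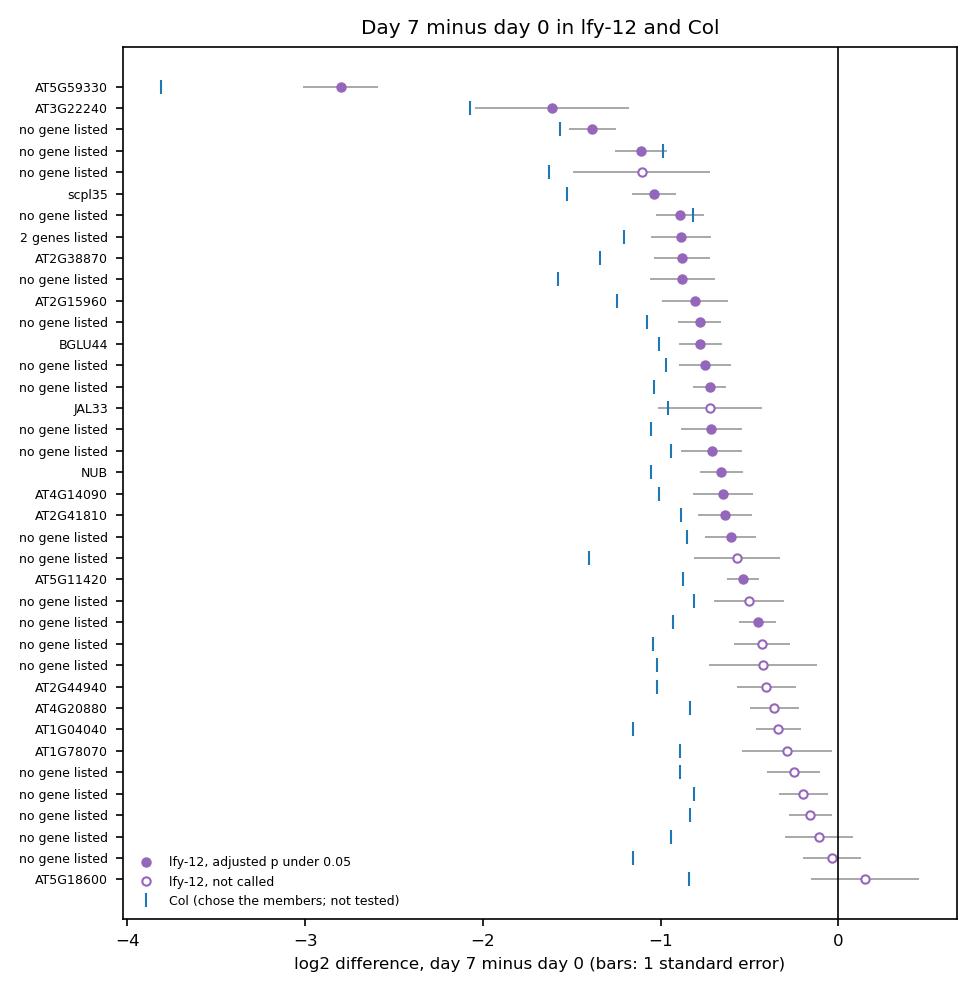
Difference between day 7 and day 0 in lfy-12 for each of the 38 members (circles, with bars of 1 standard error) on the log2 scale, ordered by size, with the Col difference that chose the members as a blue tick. Of the circles, 22 are filled (adjusted p under 0.05), all below 0; AT5G59330 lies farthest left, at -2.80, and AT5G18600 is the only member above 0.

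Against Col at the same day, 4 members were higher and 1 lower in lfy-12 at day 5, where 0.761% and 1.53% of all probe sets were. The named ones were AT5G59330, higher by 1.03 ± 0.21 (adjusted p = 0.00596), AT2G38870, higher by 0.85 ± 0.16 (adjusted p = 0.00220), and JAL33, lower by 1.11 ± 0.29 (adjusted p = 0.0398). The second lfy-12 replicate of day 5 carried an estimated 8.54% of transcripts of the other accession, a median over only 9 probe sets. Without that array none of the 4 was called as higher. Then AT5G59330 differed by 0.66 and AT2G38870 by 0.73. Without the first Col replicate of day 5 these were 0.75 and 0.56, and neither was called. JAL33 read 4.28 and 5.97 in the lfy-12 replicates and 6.17 and 6.30 in Col. Its difference became -0.26 without the first lfy-12 replicate, and the call was lost without either Col replicate as well (-1.17 and -1.04), and with only the arrays unused in the choice or only the genotypes compared (-1.11 each). At day 3, JAL33 was lower by 1.34 ± 0.29 (adjusted p = 0.0103), from 4.95 and 4.75 in lfy-12 against 6.07 and 6.32 in Col. That call was lost without either lfy-12 replicate (-1.44 and -1.24) or the second Col replicate (-1.21), and with only the genotypes compared (-1.34). JAL33 already read lower before the long days, at 4.94 and 5.41 in lfy-12 against 7.03 and 6.55 in Col at day 0. That difference was not tested. In all, 2 members were higher and 1 lower in lfy-12 at day 3, against 0.866% and 1.13% of all probe sets.

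The accessions themselves differed in the level of many members. At day 5, 10 of 38 were higher and 10 lower in Ler than in Col, against 8.83% and 10.7% of all probe sets. AT5G59330 was 6.14-fold higher in Ler (2.62 ± 0.21, adjusted p = 2.02e-10), AT4G14090 was higher by 1.12 ± 0.17 (adjusted p = 1.08e-05) and AT2G38870 by 1.04 ± 0.16 (adjusted p = 1.41e-05). AT1G04040 was lower by 0.86 ± 0.12 (adjusted p = 6.14e-06) and scpl35 by 0.56 ± 0.13 (adjusted p = 0.00155). The scpl35 call was lost without the first Col replicate (-0.43). NUB did not pass the test, at -0.18 ± 0.12. In such a comparison a transcript's level and a sequence difference under the probes cannot be told apart.

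Genes of other pathways and tissues were looked at through 15 lists of 185 genes. Matching by symbol found a probe set with 1 gene listed for only 26 of these genes, in 13 lists. The others were not matched, which does not show that the array lacks them. None of the 26 is a member, but 21 members have no gene listed and could not be matched. BCAT4 and AOP3, aliphatic glucosinolate genes (2 matched of 25), were higher at day 5 in co-2, by 1.20 and 1.57. In ft-2 they were higher by 1.24 and 1.16. PYK10, NAI1 and NAI2, from the list of myrosinases and endoplasmic reticulum bodies (3 matched of 9), were also higher in both mutants. PYK10 was higher by 1.00 in co-2 and 1.50 in ft-2, and NAI1 and NAI2 by 0.42 to 0.73. Of 17 floral repressors 3 were matched. SMZ was higher in both mutants (0.82 and 1.09). SNZ was higher in ft-2 (0.58) but not called in co-2 (0.34), and ATC was called in neither (-0.18 and -0.17). BCAT4, PYK10 and SMZ were left out of the set by name. UGT74B1, of indole glucosinolates, was higher in ft-2 (0.42) but not called in co-2 (0.28). The gibberellin genes GID1A, GID1B and GID1C were called in neither mutant at day 5. The same held for HCT of lignin, APS3 of sulfur assimilation, TRY of trichomes and EXPA7 of the root.

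Of 17 leaf genes, 4 were matched. At day 5 LHCB4.1, of the light-harvesting antenna, was higher in both mutants (0.34 ± 0.10 and 0.31 ± 0.10). LHCB4.3 was lower (-0.74 ± 0.17 and -0.64 ± 0.17), and LHCB4.2 (0.57 and 0.50) and RCA (0.42 and 0.54) were not called. UFO, 1 of 2 matched genes of young flowers, was lower by 1.36 ± 0.17 in co-2 and by 0.97 ± 0.17 in ft-2. The other, PUCHI, was not called (-0.10 and -0.24). CLV3, the only matched meristem gene of 10, was not called (0.04 ± 0.17 and 0.14 ± 0.17). The part of the makeup of the apex in the members' differences was not tested.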

How the data were processed

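The authors deposited 1 column of values for each of 40 ATH1 arrays. How they were normalized, and their log base, is not given in the sources used here; the deposited numbers span 3.03 to 13.63 and were taken as log2 signal with no further step. Genotype, day and replicate came from the sample titles. Of 22810 probe sets, 64 controls were left out. The model, fitted in limma (version 3.58.1, R version 4.3.3) to all 40 arrays, had a mean for each of 20 groups and left 20 residual degrees of freedom; tests were two-sided, with moderation with an intensity trend, and Benjamini-Hochberg adjustment within each of 17 comparisons; the steps were also run on simulated data. With 2 arrays a group, the smallest p an exact permutation test allows is 0.333. The number of arrays limits the precision: the members' median standard error was 0.16 log2 units.

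The members, the lists and the comparisons were chosen with earlier results of these data known. Genes were named from the platform's list joined to RefSeq names: the 10 members with 1 gene and the largest mean fall in Col and Ler, and those that fell in Ler from day 3 to day 5 and were higher in a mutant at day 5, are described in full, and the other members with 1 gene by their calls. Probe sets given by identifier outside the thresholds were chosen after their values were seen. Replicate numbers showed no consistent pairing across days. Over 30 pairs the correlation of deviations ran from -0.502 to 0.208, with 7 above 0.1 and 8 under -0.1. Between genotypes on the same day, the correlation over 40 pairs ran from -0.206 to 0.404, with 11 above 0.1 and 5 under -0.1. The highest were Col with lfy-12 at day 0 (0.404) and Ler with co-2 at day 3 (0.376). Some groups may thus share replicate deviations, and whether they do was not tested. Alternatives covered the thresholds, quantile normalization, median centring, a filter on low values, the model, the arrays used, a replicate block and each array left out. Promoter sequences and coordinates were not used here.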

Additional observations from a re-analysis of the deposited data

Results flagged for a closer look

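The following members were picked out because the change from day 3 to day 5 differed between a mutant and Ler in limma's test of that difference (adjusted p under 0.05). In co-2 against Ler it was more positive by 1.02 log2 units for 258167_at, by 0.87 for NUB and by 1.11 ± 0.24 for 265091_s_at (adjusted p = 0.0415). The last call was lost without any 1 of 5 arrays, at 0.90 to 1.19, and under 3 other settings. In ft-2 against Ler it was more positive by 0.94 for 258167_at, by 0.77 for NUB, by 0.88 ± 0.18 for scpl35 (adjusted p = 0.0211) and by 0.90 ± 0.17 for 262704_at (adjusted p = 0.0135), a probe set with no gene listed that was chosen after its values were seen. The scpl35 call was lost without any 1 of 7 arrays, at 0.81 to 0.92, and under 3 other settings, and that of 262704_at without any 1 of 4, at 0.75 to 0.81, and with only the genotypes compared. Of these differences, only the 2 of 258167_at were kept in every alternative run.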

How the results depend on the processing

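Replicate numbers showed no consistent pairing across days, and whether genotypes share replicate deviations was not tested. A replicate block, fitted within genotypes and not across them, serves only as a check within a genotype. With it, members called lower from day 3 to day 5 were 5 in Col and 16 in Ler. At day 5, 21 were above Ler in co-2 and 24 in ft-2, and by day 7, 22 were lower in lfy-12. Other thresholds changed the set: 19 members at a fall of 1, 13 at a mutant limit of -0.2, and 60 at a fall of 0.7. Quantile normalization gave 45, of which 36 are shared, and leaving out 1 array gave 35 to 46.

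Members lower in lfy-12 from day 3 to day 5 numbered 1, not 3, with only the genotypes compared or with the block. The count was also 1 without the 3 arrays richest in transcripts of the other accession (4.14 to 8.54%, against at most 0.834% on the other 37). They are the second lfy-12 replicate of day 5, the first co-2 replicate of day 3 (5.69%) and the first ft-2 replicate of day 0. The last of these helped choose the members. These estimates take the mutants' accessions from general knowledge. At day 3, members above Ler in co-2 numbered 0, not 1, with median centring, without the intensity trend, with only the genotypes compared or with the block; those in ft-2 numbered 1, not 2, with quantile normalization, median centring or the block. For the step from day 3 to day 5 in ft-2 against Ler, 4 members became 2 with median centring or the block and 1 with only the genotypes compared. Members higher in lfy-12 than Col at day 3 numbered 1, not 2, without the trend, with only arrays unused in the choice, or without the 3 arrays, and 0 with only the genotypes compared; the 4 at day 5 became 0 without the 3 arrays.

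With 1 array left out, the lone array of its group was taken to vary like the others. From day 3 to day 5 the members lower were then 1 to 3 in Col, 6 to 13 in Ler and 0 to 1 in lfy-12. Against Ler, 0 to 1 were higher in either mutant at day 3, 13 to 18 in co-2 and 11 to 18 in ft-2 at day 5, and 1 to 4 and 1 to 3 in the step. By day 7, 17 to 22 were lower in lfy-12; against Col it had 0 to 1 higher at day 3 and 0 to 3 at day 5. Ler against Col had 7 to 10 higher and 6 to 9 lower. Of 964 repeats of the 77 calls of named members, 788 were kept, 176 lost and 0 reversed.

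Over all probe sets, totals that moved by more than 1.5 times were, with only the genotypes compared, 789 to 439 (Ler), 221 to 138 (lfy-12), 110 to 51 (co-2) and 12 to 4 (ft-2) from day 3 to day 5, 688 to 282 (co-2) and 1070 to 701 (ft-2) against Ler at day 3, 2183 to 1362 for co-2 at day 5, and 66 to 42 in the step of ft-2 against Ler (also with the block). Without the 3 arrays, 221 became 58 in lfy-12, 110 became 41 in co-2, 688 became 289 and the 521 of lfy-12 against Col at day 5 became 261. With a filter on low values the 110 became 210, with only unused arrays the 12 became 21, and lfy-12 called 1179 counted from day 3 in place of 2915. The single call in the step of lfy-12 against Col became 0 or 2. Scaling moved the split of calls (higher and lower) by over 10 points, with median centring, against Ler at day 3 (432 and 256 to 244 and 306 for co-2, 699 and 371 to 396 and 460 for ft-2), from day 3 to day 5 (162 and 249 to 314 and 168 in Col, 79 and 31 to 62 and 66 in co-2, 10 and 2 to 11 and 6 in ft-2) and in the steps against Ler (27 and 23 to 22 and 38 for co-2, 28 and 38 to 16 and 41 for ft-2). With quantile normalization it did so at day 5 against Ler (916 and 994 for co-2, 1135 and 1252 for ft-2) and for Ler against Col (2009 and 2432 to 2461 and 2110). The causes were not tested.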
